A study of Mus musculus with 8 samples.

Results

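Receptor tyrosine kinases are switched off in part by proteins whose own genes the kinases turn on, and 10 genes of this kind are described here in mouse embryonic fibroblasts (MEFs) exposed to RHPS4, a ligand of G-quadruplexes (G4s), the 4-stranded folds that guanine-rich DNA and RNA can take. They are Errfi1, Dusp1, Dusp4, Dusp5, Dusp6, Spry1, Spry2, Spry4, Spred1 and Spred2. The genes were selected by name as negative feedback regulators with their values across the doses already known, and the question was how their normalized counts stood at 0, 2 and 10 µM RHPS4. Their differences between doses are therefore a description. Whether a gene passed the thresholds used for all genes is stated, but it is not independent evidence of a change. All 10 were found among the 24460 genes of the count files, and all 10 were among the 14296 genes that passed the filter on low counts.

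The cells were wild type MEFs grown below confluence in a glucose-rich medium with serum, and the groups differed in the concentration of RHPS4 in the medium. There were 3 libraries at 0 µM, 3 libraries at 2 µM and 2 libraries at 10 µM. The series was made to examine G4 structures in mitochondrial gene expression and mtDNA replication, and the nuclear transcripts described here were measured in the same RNA-Seq libraries. The exposure time of these libraries and whether they came from separate cultures are not given in the sources used here, so that the errors below measure the spread between libraries, which may be technical. A lower count in such bulk RNA can come from fewer cells that express a gene or from less RNA per cell, and these cannot be told apart.

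Growth factors bind receptor tyrosine kinases at the cell surface, and the receptors pass the signal through Ras, Raf and MEK to the kinase ERK, which enters the nucleus and induces transcription. Among the induced genes are inhibitors that act back on each step. ERRFI1 binds the kinase domain of the EGF receptor family, Sprouty and SPRED proteins act on Ras and Raf, and the dual specificity phosphatases (DUSPs) remove phosphate from ERK and related kinases, so that the level of such transcripts is often read as a trace of recent ERK activity in fibroblasts.

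Library totals lay between 10455965 and 26688121 counts, and 3 counts corresponded to 0.112 to 0.287 CPM (counts scaled to library size). Such floors cover counting error only. Libraries of one dose differed by more than sampling noise, the lowest chi-square being 3.76 for each degree of freedom, and each was used as a replicate. The mtDNA features took 13.2 to 14.4% of the counts at 0 µM, 7.40 to 8.26% at 2 µM and 5.33 to 6.32% at 10 µM, so the share left to nuclear transcripts rose with dose. The part of this in the values below was not tested, except for the scaling alternatives given with them. All 9 fibroblast markers had counts in every library, although Lum reached at most 1.39 CPM, and their summed level was 8751 to 9575 CPM at 0 µM, 8182 to 9135 CPM at 2 µM and 7888 to 8388 CPM at 10 µM. The 4 epithelial markers summed to at most 4.06 CPM, the 3 endothelial markers to 4.03 CPM, the 3 leukocyte markers to 9.40 CPM and the 3 muscle markers to 1.58 CPM in any library.

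Levels were highest for Errfi1, Spred1 and Dusp6 and lowest for Dusp4. Per kb of exon at 0 µM, Errfi1 stood at 34.4 CPM per kb, Spred1 at 31.7, Dusp6 at 27.3 and Spry2 at 16.1 CPM per kb. Dusp1 at 6.84, Spred2 at 6.59 and Dusp5 at 6.19 CPM per kb formed a middle group, and within it neighbours in the order had overlapping ranges. Spry1 at 2.45, Spry4 at 1.58 and Dusp4 at 0.541 CPM per kb were the least abundant. Every other pair of neighbours in this order was apart in all 3 libraries at 0 µM.

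At 2 µM the feedback transcripts stood at 76.6% (Spred2) to 135% (Dusp4) of their untreated means, and at 10 µM at 47.0% (Errfi1) to 97.6% (Spry1). The lowest at 10 µM were Errfi1, Dusp1, Dusp5 and Dusp6 at 47.0 to 65.2%, with Spred2 next at 67.0%. The summed level of all 10 transcripts was 536 to 553 CPM at 0 µM, 502 to 520 CPM at 2 µM and 378 to 384 CPM at 10 µM. A gene was called a differentially expressed gene (DEG) at an adjusted p under 0.01 in edgeR's quasi-likelihood test and a fold change over 1.5. Between 10 and 0 µM, 3 of the 10 (Errfi1, Dusp1 and Dusp6) were DEGs, all lower, where 1.14% of all tested genes were lower and 1.95% higher. Between 10 and 2 µM, 3 of the 10 (Errfi1, Dusp5 and Dusp6) were DEGs, all lower, where 1.59% of all tested genes were lower and 3.92% higher. At 2 µM against 0 µM, 0 of the 10 were DEGs by edgeR or by DESeq2, and 0.378% of all tested genes were lower and 0.119% higher. An unadjusted p under 0.05 in edgeR was reached in that contrast by 2 of the 10 and by 3046 of the 14296 tested genes. These contrasts were in view when the genes were chosen, and the comparisons share libraries.

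The median log2 fold change of the 10 transcripts was -0.05 at 2 µM against 0 µM, -0.44 at 10 µM against 0 µM and -0.31 at 10 µM against 2 µM, beside medians of -0.01, 0.02 and 0.03 for all tested genes. For 10 µM against 0 µM the log2 fold change was below 0 for 10 of 10, and scaling by total counts alone, which moved the median of all genes up by 0.21, left 7 of 10 below 0 (Dusp4, Spry1 and Spry2 were above 0) and only Errfi1 as a DEG. Relative to the median of all genes under that scaling, 10 of 10 were lower. Setting values against that median largely undoes the change of scaling, so this count is no separate check. Every library at 10 µM lay below every library at 0 µM for 6 of the 10, as it did for 20.0% of all tested genes. Against 2 µM this held for 6 of the 10, where 24.9% of tested genes were below, and Spry1 alone was above, where 27.0% of tested genes were above. At 2 µM against 0 µM, 4 of the 10 were below in every library (12.9% of tested genes) and Dusp4 was above (12.7% of tested genes).

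**Figure D1:**
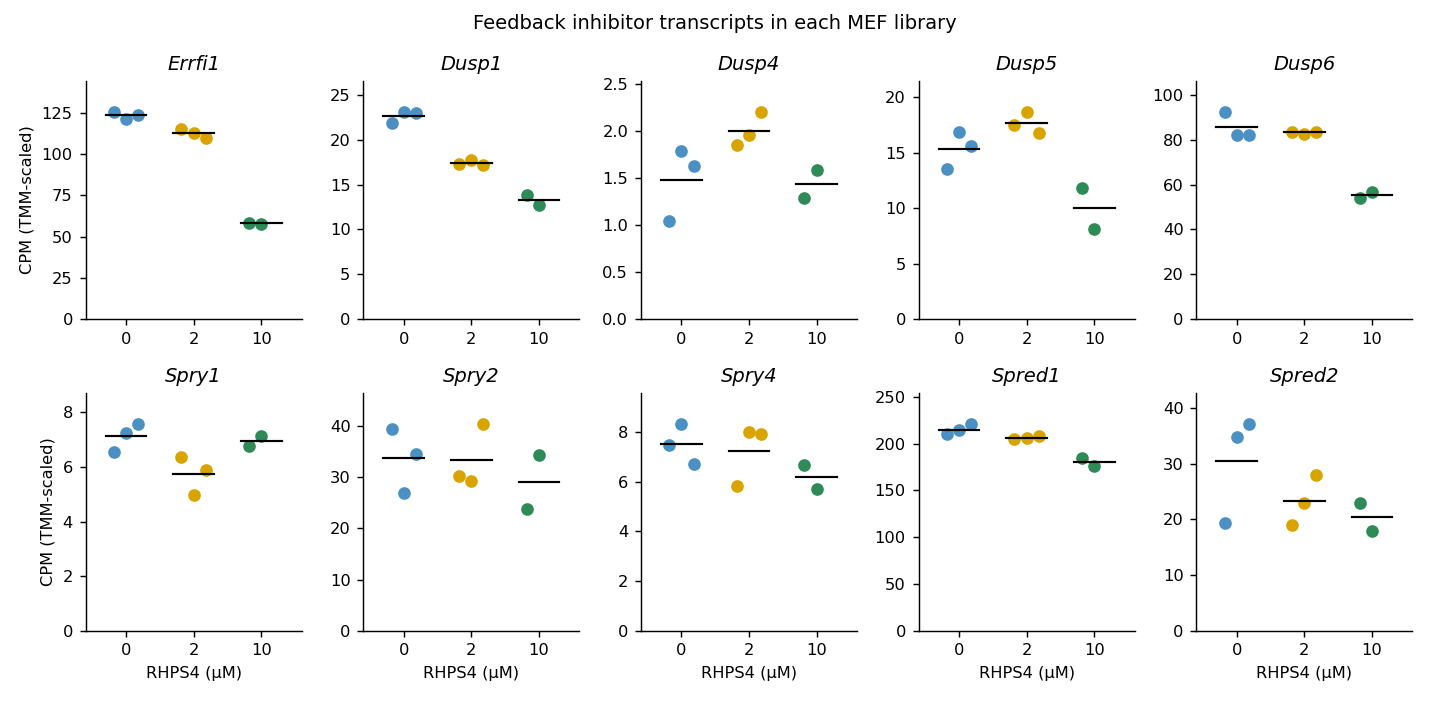
Level in CPM, scaled by the trimmed mean of M values (TMM), of each of the 10 transcripts (vertical axes, linear from 0) at 0, 2 and 10 µM RHPS4. Each point is 1 library and each black line the mean of a dose. Errfi1, Dusp1, Dusp5, Dusp6 and Spred1 at 10 µM lie below all libraries of both other doses, whereas the points of Spry2 overlap between all doses.

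Errfi1, which encodes the adaptor that blocks the kinase domain of the EGF receptor family, had the lowest level at 10 µM relative to the untreated cells. The gene lies on the plus strand at chr4:150853919-150868892 (GRCm38). Its level was 125, 121 and 124 CPM at 0 µM, 115, 113 and 110 CPM at 2 µM, and 58.2 and 57.8 CPM at 10 µM. The 3 doses did not overlap, with a small step at 2 µM and a large one between 2 and 10 µM. The means were 123 ± 2.26 (SD, n = 3), 113 ± 2.79 (SD, n = 3) and 58.0 ± 0.338 CPM (SD, n = 2), so that 91.4% of the untreated level was measured at 2 µM and 47.0% at 10 µM. The log2 fold change was -0.13 ± 0.06 (SE) at 2 µM against 0 µM, -1.09 ± 0.07 at 10 µM against 0 µM and -0.96 ± 0.07 at 10 µM against 2 µM. Errfi1 was the one transcript of the 10 that remained a DEG at 10 µM against both other doses in each of the 16 alternative fits.

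Dusp1, Dusp4, Dusp5 and Dusp6 encode DUSPs. DUSP6 is the cytoplasmic phosphatase with a preference for ERK, DUSP5 is its nuclear counterpart, and DUSP1 and DUSP4 are nuclear enzymes that also act on the stress kinases p38 and JNK. The 4 transcripts together were 122 to 129 CPM at 0 µM, 120 to 121 CPM at 2 µM and 79.1 to 80.8 CPM at 10 µM, and Dusp6 made up 66.3 to 71.7% of this sum in every library.

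Dusp6 (chr10:99263231-99267489, plus strand) was measured at 92.3, 82.2 and 81.9 CPM at 0 µM, 83.4, 82.7 and 83.6 CPM at 2 µM, and 53.9 and 56.7 CPM at 10 µM. The 0 and 2 µM libraries overlapped, and both libraries at 10 µM lay below all of them. The log2 fold change was -0.03 ± 0.07 (SE) at 2 µM against 0 µM, -0.63 ± 0.08 at 10 µM against 0 µM and -0.59 ± 0.08 at 10 µM against 2 µM, close to the fold of 1.5 that a DEG needed. With a filter of 10 counts or more in each library the value against 2 µM was -0.58, which ended the call. Scaling by total counts ended both calls, with log2 fold changes of -0.41 against 0 µM and -0.46 against 2 µM.

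Dusp1 (chr17:26505590-26562128, minus strand) was lower at each higher dose. Its level was 21.9, 23.1 and 23.0 CPM at 0 µM, 17.3, 17.8 and 17.2 CPM at 2 µM, and 13.9 and 12.7 CPM at 10 µM. The 3 doses did not overlap, and the steps were of like size on the log2 scale. The log2 fold change was -0.38 ± 0.08 (SE) at 2 µM against 0 µM, -0.39 ± 0.10 at 10 µM against 2 µM and -0.77 ± 0.09 at 10 µM against 0 µM. Of these contrasts, Dusp1 was a DEG at 10 µM against 0 µM alone, and scaling by total counts ended that call (-0.56).

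Dusp5 (chr19:53529109-53542431, plus strand) stood highest at 2 µM and lowest at 10 µM. It was measured at 13.5, 16.9 and 15.6 CPM at 0 µM, 17.5, 18.7 and 16.8 CPM at 2 µM, and 11.8 and 8.13 CPM at 10 µM. The 0 and 2 µM libraries overlapped, and the 2 libraries at 10 µM lay below both doses but apart from each other. The log2 fold change was 0.19 ± 0.13 (SE) at 2 µM against 0 µM, -0.62 ± 0.15 at 10 µM against 0 µM and -0.81 ± 0.16 at 10 µM against 2 µM. The call at 10 µM against 2 µM was lost without either of the first and second 2 µM libraries, without the second 10 µM library (log2 fold change -0.82 to -0.61) and under scaling by total counts (-0.68). Dusp5 became a DEG at 10 µM against 0 µM with no filter on low counts, with DESeq2, and without the first library of either dose (-0.71 and -0.96). An antisense gene, AC137853.2, covers 22.1% of the exon bases of Dusp5 on the other strand, and whether the counting used the strand is not given in the sources used here, so reads of the pair may be mixed.

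Dusp4 (chr8:34807297-34819894, plus strand) was near the limit of these libraries, with 10 to 41 counts. It was measured at 1.04, 1.78 and 1.63 CPM at 0 µM, 1.85, 1.96 and 2.20 CPM at 2 µM, and 1.28 and 1.58 CPM at 10 µM. All 2 µM libraries lay above those of the other doses, but the counting error was wide, with an exact 95% Poisson interval of 4.79 to 18.4 counts for the 10 counts of the first 0 µM library and of 26.1 to 51.0 counts for the 37 counts of the highest 2 µM library. The log2 fold change was 0.37 ± 0.23 (SE) at 2 µM against 0 µM and -0.14 ± 0.27 at 10 µM against 0 µM.

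The stretches printed here are from Errfi1, Dusp1, Dusp5 and Dusp6, the transcripts lowest at 10 µM relative to untreated cells. Their promoters show what these genes share and do not share in sequence. RefSeq gives windows of 250 bases before to 50 bases after an annotated start (GRCm38.p6), and 9 windows matched 8 of the 10 genes (not Dusp4 and Spry4), Errfi1 having 2 starts. The stretches before the start are printed 5′ to 3′ on the strand of the gene, ending before any exon that GENCODE annotates for the gene itself. Capitals mark the cAMP response element (CRE, TGACGTCA) and its half-site (TGACG, or CGTCA on the other strand), the CArG box that serum response factor binds, and a TATA box (TATAAA). The Errfi1 stretch is from the second start, chr4:150854820-150855069 on the plus strand, the Dusp1 stretch is chr17:26508520-26508722 on the minus strand, the Dusp5 stretch is chr19:53528895-53529108 on the plus strand and the Dusp6 stretch is chr10:99262981-99263230 on the plus strand.
Errfi1: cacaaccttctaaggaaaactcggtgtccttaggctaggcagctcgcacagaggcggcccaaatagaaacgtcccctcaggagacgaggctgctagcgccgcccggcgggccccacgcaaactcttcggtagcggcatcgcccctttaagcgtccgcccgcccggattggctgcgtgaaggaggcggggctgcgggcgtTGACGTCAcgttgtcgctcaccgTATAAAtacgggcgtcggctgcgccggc
Dusp1: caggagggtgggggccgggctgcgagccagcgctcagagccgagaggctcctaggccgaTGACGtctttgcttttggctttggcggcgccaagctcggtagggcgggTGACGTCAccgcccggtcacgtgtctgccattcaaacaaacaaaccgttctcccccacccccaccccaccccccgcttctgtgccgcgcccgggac
Dusp5: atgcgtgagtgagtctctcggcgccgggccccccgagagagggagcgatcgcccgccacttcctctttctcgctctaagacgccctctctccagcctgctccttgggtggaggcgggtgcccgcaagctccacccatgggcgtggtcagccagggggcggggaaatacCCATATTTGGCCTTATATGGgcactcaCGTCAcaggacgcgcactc
Dusp6: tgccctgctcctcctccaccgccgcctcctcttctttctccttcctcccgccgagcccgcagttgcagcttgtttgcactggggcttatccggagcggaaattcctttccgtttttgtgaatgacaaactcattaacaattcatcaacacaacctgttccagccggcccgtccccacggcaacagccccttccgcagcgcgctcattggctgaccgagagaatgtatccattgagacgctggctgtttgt
A full CRE stands 51 to 44 bases before the second start of Errfi1 and 143 to 136 bases before that of Dusp1. These are 2 of the 9 windows, while 1.79% of all 32851 RefSeq windows hold a full CRE. The half-site, which every full CRE also contains, was in 4 of the 9 windows, Dusp5 and Spred2 being the others, and in 20.8% of all windows. Dusp5 holds a pair of adjoining CArG boxes from 82 to 63 bases before its start, and 1.63% of all windows hold such a box. The Dusp6 stretch holds none of the listed motifs.

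Both strands of the windows were also searched for other motifs. The AP-1 motif (TGANTCA) was in 0 of the 9 windows and in 7.81% of all windows, the ETS motif (CCGGAA) was in the Spry2 window and in 14.9% of all windows, and TATAAA was in the Errfi1 window and in 13.6% of all windows. A G4 pattern, read as 4 runs of at least 3 G with 1 to 7 bases between them, was found on the strand opposite to the gene in Dusp1, Spry2 and Spred1, in 3 of the 9 windows and in 18.5% of all windows. The motifs were chosen with these windows in view, and each match is a description of letters only. Of the 3 genes with a G4 pattern, Dusp1 stood at 58.7%, Spred1 at 83.9% and Spry2 at 86.4% of the untreated level at 10 µM. The 5 genes with no such pattern in their windows stood at 47.0% (Errfi1), 64.7% (Dusp6), 65.2% (Dusp5), 67.0% (Spred2) and 97.6% (Spry1).

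Spry1, Spry2 and Spry4 encode Sprouty proteins, which are recruited to the membrane after growth factor stimulation and dampen the Ras-Raf step. None of these was called between any doses. Their summed level was 42.6 to 53.6 CPM at 0 µM, 42.3 to 54.3 CPM at 2 µM and 37.3 to 47.2 CPM at 10 µM, and these ranges overlapped.

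Spry2 (chr14:105891947-105896819, minus strand), the most abundant of the family, was measured at 39.5, 27.0 and 34.5 CPM at 0 µM, 30.2, 29.4 and 40.5 CPM at 2 µM, and 23.9 and 34.4 CPM at 10 µM. Libraries of one dose differed by as much as libraries of different doses, and the log2 fold change at 10 µM against 0 µM was -0.20 ± 0.19 (SE). Spry1 (chr3:37639947-37644598, plus strand) was lowest at 2 µM, with 6.54, 7.24 and 7.58 CPM at 0 µM, 6.35, 4.97 and 5.88 CPM at 2 µM, and 6.78 and 7.12 CPM at 10 µM. All 2 µM libraries lay below those of the other doses, by a log2 fold change of -0.33 ± 0.13 (SE) against 0 µM, while 10 µM and 0 µM overlapped with a log2 fold change of -0.05 ± 0.14. The antisense gene Gm42922 covers 24.4% of the exon bases of Spry1, with the same limit as for Dusp5. Spry4 (chr18:38586247-38601415, minus strand) was measured at 7.47, 8.33 and 6.71 CPM at 0 µM, 5.82, 7.99 and 7.91 CPM at 2 µM, and 6.65 and 5.68 CPM at 10 µM. Both 10 µM libraries lay just below the lowest untreated library, and the log2 fold change was -0.27 ± 0.17 (SE).

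Spred1 and Spred2 encode Sprouty-related proteins that bring neurofibromin to the membrane to switch off Ras. Spred1 (chr2:117121374-117182279, plus strand) varied little within a dose, with 210, 214 and 221 CPM at 0 µM, 205, 206 and 208 CPM at 2 µM, and 185 and 176 CPM at 10 µM. The 3 doses did not overlap, but the differences were small, with a log2 fold change of -0.06 ± 0.06 (SE) at 2 µM and -0.25 ± 0.07 at 10 µM against 0 µM. Spred2 (chr11:19924375-20024026, plus strand) varied most, with 19.4, 34.7 and 37.2 CPM at 0 µM, 18.9, 23.0 and 28.1 CPM at 2 µM, and 23.0 and 17.8 CPM at 10 µM. The first untreated library lay with the treated ones, and the doses overlapped. The log2 fold change at 10 µM against 0 µM was -0.60 ± 0.24 (SE), and without the first 0 µM library it was -0.84 and Spred2 became a DEG.

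**Figure D2:**
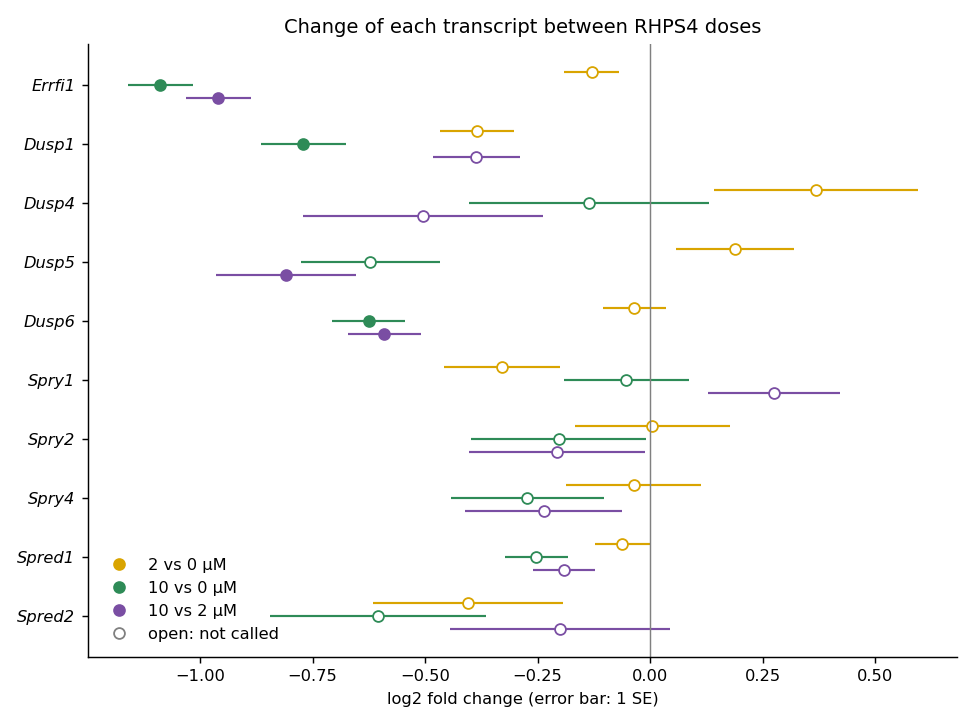
Log2 fold change (horizontal axis) of each of the 10 transcripts between doses, with bars of 1 SE from edgeR. Filled points are DEGs and open points are not. Errfi1 lies farthest to the left, at -1.09 and -0.96 for 10 µM against 0 and 2 µM, and all points for 2 µM against 0 µM are open.

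Reads set against Spred1 within a library need no scaling between libraries. For every 100 reads of Spred1 there were 59.8, 56.5 and 55.9 reads of Errfi1 at 0 µM, 56.3, 55.0 and 52.9 reads at 2 µM, but 31.5 and 32.8 reads at 10 µM. The ratio was lower in both 10 µM libraries than in every other library. Dusp6 gave 43.9, 38.4 and 37.0 reads at 0 µM, 40.6, 40.2 and 40.2 reads at 2 µM, but 29.1 and 32.1 reads at 10 µM, again apart. Dusp1 gave 10.4, 10.8 and 10.4 reads at 0 µM, 8.42, 8.64 and 8.27 reads at 2 µM, then 7.49 and 7.22 reads at 10 µM, with no overlap between doses. Dusp5 gave 6.43, 7.87 and 7.05 reads at 0 µM, 8.54, 9.07 and 8.07 reads at 2 µM, then 6.41 and 4.61 reads at 10 µM. All its 2 µM ratios lay above the untreated ones, and the higher 10 µM ratio lay just below the lowest untreated one. Spry1 went the other way, with 3.11, 3.38 and 3.43 reads at 0 µM and 3.67 and 4.04 reads at 10 µM. The ratios of Dusp4, Spry2, Spry4 and Spred2 overlapped between 0 and 10 µM. Such ratios show unequal change of a pair of transcripts, and not which of them changed.

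**Figure D3:**
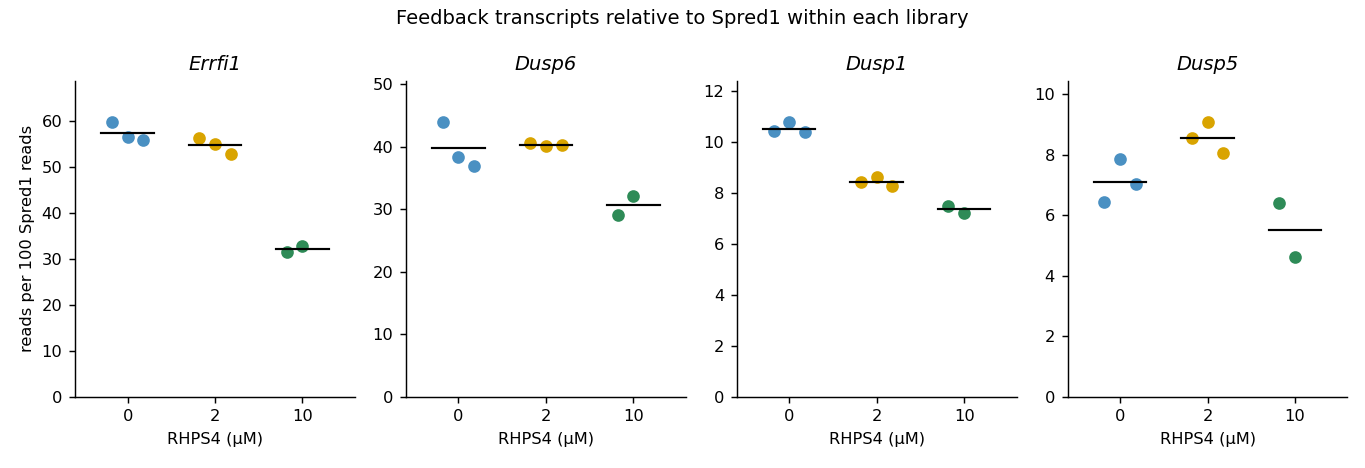
Reads of Errfi1, Dusp6, Dusp1 and Dusp5 per 100 reads of Spred1 in the same library (vertical axes, linear from 0) at each RHPS4 dose. Points are libraries and black lines are means of a dose. Errfi1 lies between 52.9 and 59.8 at 0 and 2 µM and at 31.5 and 32.8 at 10 µM.

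Among the 14295 other tested genes, those whose levels followed Errfi1 most closely over the 8 libraries were sought by the root mean square (RMS) difference of log2 CPM, each gene set to its own mean at 0 µM. Among the 5 nearest was Pfkl, the liver-type phosphofructokinase of glycolysis, with an RMS difference of 0.0883 and means of 195, 168 and 99.2 CPM at 0, 2 and 10 µM. Gm2115 with 0.112, Apln, which encodes the ligand apelin, with 0.118, and Hsd17b7, an enzyme of cholesterol synthesis, with 0.128 were also among them. In the same order of likeness Dusp1 ranked 46 and Dusp6 ranked 62, while Dusp5 ranked 464, Spred1 1313, Spry4 1760, Spred2 1815, Spry2 3402, Spry1 5277 and Dusp4 9763.

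The rest of the pathway was described by 5 lists of genes, none of them among the 10, of which 84 of 92 passed the filter. Over all of them, 2 rose and 7 fell at 10 µM against 0 µM, 2 rose and 6 fell at 10 µM against 2 µM, and 1 rose and 2 fell at 2 µM against 0 µM. In the same order of contrasts, 1.95, 3.92 and 0.119% of all tested genes rose and 1.14, 1.59 and 0.378% fell. The median log2 fold change of the 84 genes was -0.19 at 10 µM against 0 µM, beside 0.02 for all tested genes. All calls below are DEGs by edgeR's quasi-likelihood test with Benjamini-Hochberg adjusted p values over all tested genes.

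Of 15 tested growth factor ligands, 1 rose and 0 fell at 10 µM against 0 µM, and the rest did not pass. The riser was Fgf21, a stress-induced endocrine FGF, which had 0, 1 and 3 counts at 0 µM and 16 and 11 counts at 10 µM, with an adjusted p of 0.0026. Its log2 fold change of 3.48 rests on these few counts, and the call was lost without the second 0 µM library or either 10 µM library (log2 fold change 3.24 to 3.59). Against 2 µM, Fgf21 rose as well, a call lost in all fits without 1 library except that without the first 0 µM one (log2 fold change 2.07 to 2.71). This call was also lost with no filter on low counts (2.27). In both contrasts DESeq2 gave Fgf21 no adjusted p and so no call, and a minimum of 10 counts in each library left it untested. Hbegf, the heparin-binding ligand of the EGF receptor, fell from 69.5, 66.8 and 75.7 CPM at 2 µM to 44.3 and 48.0 CPM at 10 µM (log2 fold change -0.62 ± 0.09 SE, adjusted p 0.001). Its untreated libraries lay between these doses, at 63.4, 56.1 and 55.6 CPM. Against 0 µM it was not called at 2 µM (log2 fold change 0.28) or at 10 µM (-0.34).

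All 16 receptor tyrosine kinases were tested, and 1 fell and 0 rose at 10 µM against 0 µM. It was Pdgfrb, the PDGF receptor of mesenchymal cells, with 234, 233 and 239 CPM at 0 µM, 184, 181 and 188 CPM at 2 µM, and 154 and 155 CPM at 10 µM (log2 fold change -0.60 ± 0.07 SE, adjusted p 0.00025). The doses did not overlap. Between 2 and 0 µM it was not called, with a log2 fold change of -0.35 (adjusted p 0.012). Egfr, the EGF receptor itself, was near the limit of these libraries. It had 11, 34 and 59 counts at 0 µM, with a mean of 1.72 CPM, and 52 and 33 counts at 10 µM. The log2 fold change of Egfr at 10 µM against 0 µM was 0.59 ± 0.27 (SE), not called. Erbb2 and Erbb3 of the same family had means of 44.0 and 41.1 CPM at 0 µM.

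Of 21 genes for the adaptors, Ras proteins and kinases of the core cascade, 20 did not pass at 10 µM against either dose, and all 21 did not pass at 2 µM. The exception was Rps6ka2, which encodes the ERK-activated kinase RSK3. It rose from 33.5, 34.1 and 33.5 CPM at 0 µM and 32.4, 37.3 and 35.1 CPM at 2 µM to 74.1 and 67.4 CPM at 10 µM (log2 fold change 1.07 ± 0.09 SE against 0 µM, adjusted p 1.9e-05).

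Of 16 tested other feedback inhibitors, which include further DUSPs, the CBL ubiquitin ligases and the Ras GTPase activators, 1 fell and 0 rose at 10 µM against each of the other doses. It was Lrig1, a transmembrane protein that promotes the removal of EGF receptors, with 83.9, 80.8 and 83.9 CPM at 0 µM, 85.9, 87.9 and 86.8 CPM at 2 µM, and 49.0 and 51.4 CPM at 10 µM (log2 fold change -0.72 ± 0.07 SE against 0 µM, adjusted p 9.9e-05). Its 10 µM libraries lay below all others, as those of Errfi1 did. The median log2 fold change of this list was -0.24 at 10 µM against 0 µM and -0.12 at 2 µM against 0 µM.

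Of 16 transcripts known to respond to ERK, 5 fell and 0 rose at 10 µM against 0 µM, and 4 fell and 0 rose at 10 µM against 2 µM. Of all tested genes 1.14% fell and 1.95% rose in the former contrast and 1.59% fell and 3.92% rose in the latter, and the list was chosen with earlier results of these libraries known. Not called were 11 of the 16 against 0 µM and 12 of the 16 against 2 µM. Against 0 µM the log2 fold changes of the list ran from -1.20 to 0.19, with a median of -0.28. The 4 that fell in both contrasts were Fosl1, which encodes the AP-1 subunit FRA1, Ccnd1, which encodes cyclin D1, Etv4, an ETS factor, and Hmga2, a chromatin protein. Fosl1 had 68.0, 73.2 and 74.5 CPM at 0 µM, 78.8, 72.2 and 75.3 CPM at 2 µM, and 36.9 and 25.7 CPM at 10 µM (log2 fold change -1.20 ± 0.13 SE against 0 µM, adjusted p 0.00017). Ccnd1 had 416, 423 and 422 CPM at 0 µM and 273 and 268 CPM at 10 µM (log2 fold change -0.64 ± 0.07 SE, adjusted p 0.00024). Etv4 and Hmga2 had log2 fold changes of -0.61 and -0.81 with adjusted p values of 0.00081 and 0.0028.

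Fos was the ERK-responsive transcript that fell at both doses, from 8.10, 9.07 and 8.30 CPM at 0 µM to 2.12, 2.12 and 3.63 CPM at 2 µM and 4.40 and 3.02 CPM at 10 µM (log2 fold changes -1.65 and -1.18, adjusted p 0.0022 and 0.0049). At 2 µM Etv1 also fell (log2 fold change -0.67, adjusted p 0.0098) and Plaur, the urokinase receptor, rose (log2 fold change 0.60, adjusted p 0.0035). Fos was no DEG at 2 µM without the second or the third 0 µM library or the first or second 2 µM library (log2 fold change -1.68 to -1.52). Plaur was none without the second or the third 0 µM library or any 2 µM library (0.55 to 0.65). Etv1 was none when any library except the first 0 µM one was left out (-0.74 to -0.60). It was also none with TMM on nuclear genes, total counts, at least 10 counts in each library, or the 2 groups alone (-0.67 to -0.59). At 10 µM against 0 µM, Fos (-1.52 to -0.98) and Hmga2 (-0.86 to -0.75) were no DEGs without the second or the third 0 µM library or either 10 µM library, and Hmga2 against 2 µM was none without the second 10 µM library (-0.86). Scaling by total counts took Pdgfrb, Lrig1, Ccnd1 and Etv4 at 10 µM against 0 µM under the fold of 1.5, to log2 fold changes of -0.39, -0.51, -0.42 and -0.40, and it ended the calls of Hbegf (-0.48) and Etv4 (-0.57) at 10 µM against 2 µM.

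**Figure D4:**
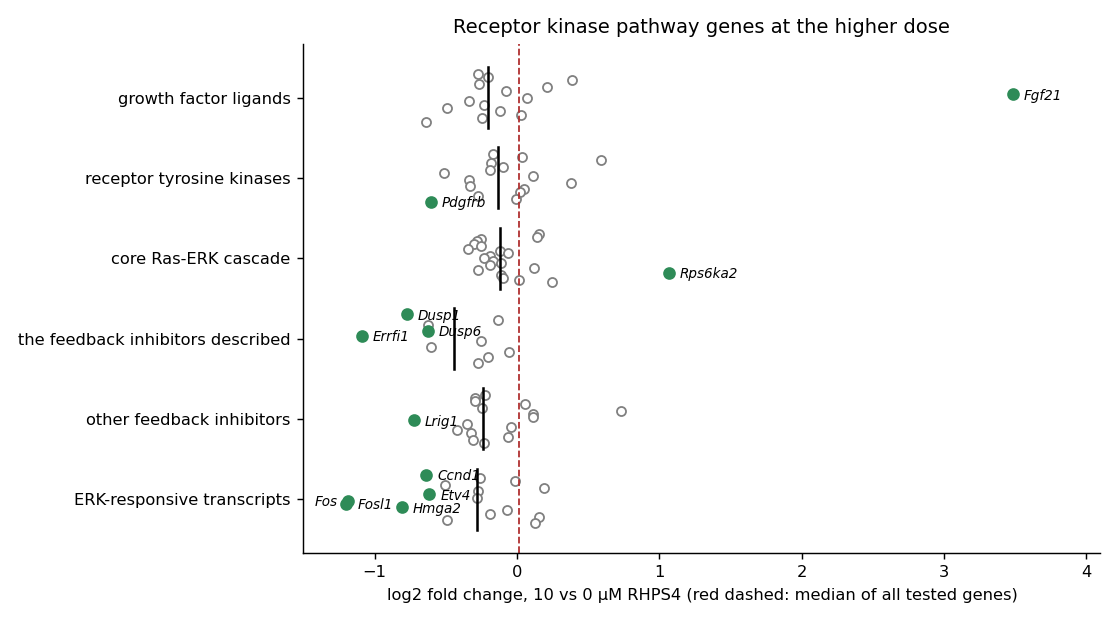
Log2 fold change at 10 µM against 0 µM RHPS4 (horizontal axis) of the 10 feedback inhibitors and of the 5 pathway lists, 1 point per tested gene. Green points are DEGs, open points are not, black lines are list medians and the red dashed line is the median of all tested genes, 0.02. The DEGs among inhibitors and ERK-responsive transcripts lie on the lower side, and Rps6ka2 and Fgf21 on the higher side.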

How the data were processed

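RNA-Seq was performed by the authors on total RNA from MEFs after depletion of ribosomal RNA, as strand-specific libraries. Per the submitters' processing notes, FastQC, Trim Galore, cutadapt, STAR 2.5.2a, featureCounts and the build mm10 were used. The deposited values are counts per gene of uniquely mapped read fragments, as whole numbers with no normalization. The annotation release and the strand setting are not given in the sources used here. Groups were taken from the labels of the samples, and the replicate numbers from their titles.

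The counts of all 8 libraries were analysed with edgeR 4.0.16 in R 4.3.3 (TMM, filterByExpr, glmQLFit and glmQLFTest, dose as the only factor, Benjamini-Hochberg adjustment over the tested genes). The DEG thresholds, an adjusted p under 0.01 and a fold over 1.5, are those of the study. The SE of a log2 fold change is its size divided by the root of the F statistic. CPM values are scaled by TMM, and a prior count of 2 was used on the log2 scale. Gene models are from GENCODE on GRCm38, promoters from RefSeq.

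The 10 genes and all lists were chosen with earlier results of these data known. Named besides the 10 were up to 4 called genes of each pathway list by smallest p, the 5 genes nearest to Errfi1, and the remaining genes where a count was 5 or fewer. Not every gene that this rule names is reported here. Egfr, Erbb2 and Erbb3 were named outside this rule, to give levels of the EGF receptor family. Because the 10 genes were chosen on these doses, no single p is printed for them and their calls are a description. Totals of 10455965 to 26688121 counts set the precision, and intervals cover counting error only.

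Alternatives were RLE scaling, TMM on nuclear genes, total counts only, no filter, a minimum of 10 counts in each library, DESeq2 1.42.0, fits of the 2 groups alone, a block for the replicate number, an adjusted p under 0.05 with no minimum fold, and each library left out in turn. The procedure was tested on simulated counts. Other experiments of the study are not analysed here.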

Additional observations from a re-analysis of the deposited data

How the results depend on the processing

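Of the 480 log2 fold changes of the 10 genes under the 16 alternative fits, 440 moved by less than the spread between replicates, 40 moved by more, and none of the called ones changed sign. At 10 µM against 0 µM, 442 genes, 3 of the 10 and 9 pathway genes were DEGs. Scaling by total counts only gave 904 genes and 1 of the 10, with 92.5% instead of 63.1% of the DEGs higher, and an adjusted p under 0.05 with no minimum fold gave 1991 genes, 5 of the 10 and 19 pathway genes. Leaving out 1 library at a time gave 235 to 633 genes and 3 to 5 of the 10. At 10 µM against 2 µM, 788 genes, 3 of the 10 and 8 pathway genes were DEGs. Total counts only left 1 of the 10, with 91.6% instead of 71.2% of the DEGs higher, the looser threshold gave 3346 genes and 30 pathway genes, and leaving out 1 library gave 444 to 884 genes. At 2 µM against 0 µM, 71 genes, 0 of the 10 and 3 pathway genes were DEGs. DESeq2 gave 109 genes, the looser threshold 595 genes, 1 of the 10 and 10 pathway genes, and leaving out 1 library 6 to 144 genes and 0 to 3 pathway genes; total counts gave 39.4% instead of 23.9% of the DEGs higher. DESeq2 gave 46.6% of DEGs higher at 10 µM against 0 µM. The cause of these shifts was not tested. Where 1 library was left at 10 µM, it was assumed to vary like the other groups.

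Libraries of the same replicate number at 0 and 2 µM had deviations from their dose means that correlated by 0.199, 0.0845 and 0.161. Between these doses each library correlated most with that of its own number. Those at 10 µM correlated by -0.145 to -0.0212 with their numbers. With 2 libraries at 10 µM the deviations of one mirror those of the other. Each library at 0 or 2 µM therefore correlated with these 2 by values of equal size and opposite sign. For the first and second libraries at 0 and 2 µM, the value below 0 was that with their own number. Whether the numbers are paired was not tested. Whether libraries of one number were handled together is not given in the sources used here. With the replicate block, 54, 322 and 735 genes were DEGs at 2 µM against 0 µM, 10 µM against 0 µM and 10 µM against 2 µM, with 0, 3 and 2 of the 10 (Dusp5 at 10 µM against 2 µM was lost) and with 1, 8 and 8 pathway genes. The block ended the calls of Plaur (adjusted p 0.010) and Etv1 (0.020) at 2 µM against 0 µM, of Fos (0.022) at 10 µM against 0 µM and of Fgf21 (0.012) at 10 µM against 2 µM.

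With 10 to 41 counts per library, the values of Dusp4 had the widest counting error of the 10.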
